A study of Schmidtea mediterranea with 15 samples.

Results

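Trunk fragments of the planarian flatworm Schmidtea mediterranea that had regenerated for 5 days were compared with trunk fragments at day 0, by sequencing of poly(A) RNA. The comparison takes the 3 day 5 libraries and the 3 day 0 libraries, 6 of the 15 libraries of the study, chosen by their labels. The other libraries are of trunks at day 3 and day 7 and of whole juvenile animals, with 3 of each, and they enter the estimate of spread and serve as levels beside the 2 groups. All animals were of the sexual biotype, labelled S2F2. The day 5 fragments had regenerated without any further agent named in the labels, and the day 0 fragments were trunks of the same biotype before regeneration. The labels do not say whether a library came from 1 animal or a pool, nor whether libraries of a group came from separate animals. The p-values therefore measure the spread between these libraries, which may be technical in part.

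Planarians rebuild missing parts from dividing stem cells called neoblasts, which gather under the wound and form a blastema, the bud of new tissue, while the old tissue of the fragment is remodelled. A trunk fragment has lost its head and tail and has to make both again. Animals of the sexual biotype are hermaphrodites, and an adult trunk can hold testes, yolk glands and copulatory organs, which juveniles have not yet developed. RNA from a whole fragment mixes all of these tissues, so that fewer cells of a type and less RNA per cell cannot be told apart in any result given here.

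Each row of the deposited count table is a sequence record, called a transcript here, and several can belong to 1 gene. The table holds identifiers without gene names, and no sequence or annotation was used here. No function can therefore be given to a transcript, the fixed lists of stem cell, wound, organ and germ cell genes could not be matched, and the trunk label could not be checked against marker genes. Transcripts are described instead by their level, the size of their change and their behaviour across libraries, and only the 2 transcripts with the largest gain and the 2 with the largest loss are given by identifier.

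Total counts were 36927291 to 59034917 in the day 5 libraries and 20338464 to 34569921 in the day 0 libraries. The test was run on 46736 of the 92053 records, those that passed a filter on low counts. CPM, the unit of level used here, are counts scaled by library size after its adjustment by a factor per library (TMM). Shares of counts are taken of the total counts without that factor. A principal component analysis of log2 CPM over these 6 libraries put 44.9% of the variance on its first component, with day 5 scores of 35.1 to 65.6 and day 0 scores of -108 to -21.0. Day 0 replicate 3 stood apart, at -108 against -25.4 and -21.0 for the other day 0 libraries. Among 13579 transcripts with a mean of at least 5 CPM, 374 (2.75%) differed at least 2-fold between the highest and lowest day 5 library, and 1014 (7.47%) did so between day 0 libraries. The median coefficient of variation was 5.29% at day 5 and 7.55% at day 0.

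After 5 days, 4148 transcripts differed from day 0 (8.88% of those tested), of which 1510 were higher (3.23%) and 2638 lower (5.64%), by edgeR's quasi-likelihood test at an adjusted p under 0.05. Falls made up 63.6% of the calls. Most called changes were small: the median called rise was 1.42-fold and the median called fall 1.44-fold. The median log2 fold change of all tested transcripts was -0.02, but TMM scaling centres such values, so it does not measure the size of changes. Of the rises, 902 were under 1.5-fold, 348 were 1.5- to 2-fold, 206 were 2- to 4-fold and 54 were 4-fold or more. Of the falls, 1455 were under 1.5-fold, 533 were 1.5- to 2-fold, 478 were 2- to 4-fold and 172 were 4-fold or more. At 2-fold or more this left 260 rises (0.556% of those tested) and 650 falls (1.39%). When the test asked for a change of more than 1.5-fold rather than any change, 250 transcripts passed.

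**Figure D1:**
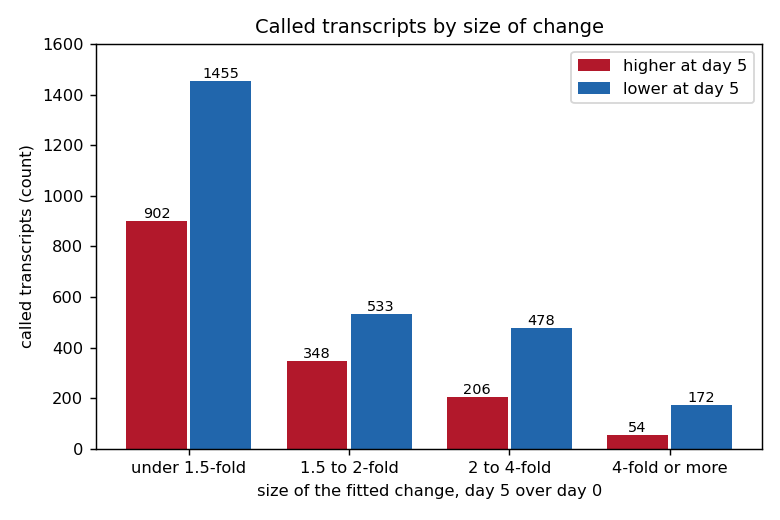
Number of called transcripts (vertical axis) by the size of the fitted change of day 5 over day 0 (horizontal axis), with rises in red left of falls in blue. Falls outnumber rises in each class, with 1455 against 902 under 1.5-fold and 172 against 54 at 4-fold or more.

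The number of calls depended on the libraries used. In place of 4148 there were 2331 calls when day 5 replicate 2 was left out and 2538 when replicate 3 was. A fit of the 2 groups alone gave 2103. The rises, 1510 with all libraries, were 942, 848 and 953 without day 5 replicate 1, 2 or 3 and 1003 without day 0 replicate 2. The falls, 2638 with all libraries, were 1483 and 1585 without day 5 replicate 2 or 3 and 1206 in the fit of the 2 groups alone, which gave 897 rises. The 260 rises of at least 2-fold were 169 without day 5 replicate 2, 139 in the fit of the 2 groups alone and 115 by DESeq2. The 650 falls of at least 2-fold were 418 without day 5 replicate 2. Falls outnumbered rises in each of these fits, and the closest split over the 15 fits that each left out 1 library was 2047 falls to 1774 rises, without day 3 replicate 2. Without the filter on low counts the directions were nearly even, with 1823 falls and 1742 rises.

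Transcripts above 10 CPM were called more often than scarcer ones, and at smaller changes. Of the 1512 transcripts with a mean of 100 CPM or more over all libraries, 6.48% rose and 18.7% fell, with a median called change of 1.23-fold. Of the 8619 at 10 to 100 CPM, 7.75% rose and 15.3% fell, with a median called change of 1.29-fold. Of the 13438 at 1 to 10 CPM, 3.97% rose and 5.26% fell, with a median called change of 1.60-fold. Of the 23167 under 1 CPM, 0.906% rose and 1.43% fell, and the median called change there was 2.73-fold. The plot of fold change against level shows this narrowing.

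**Figure D2:**
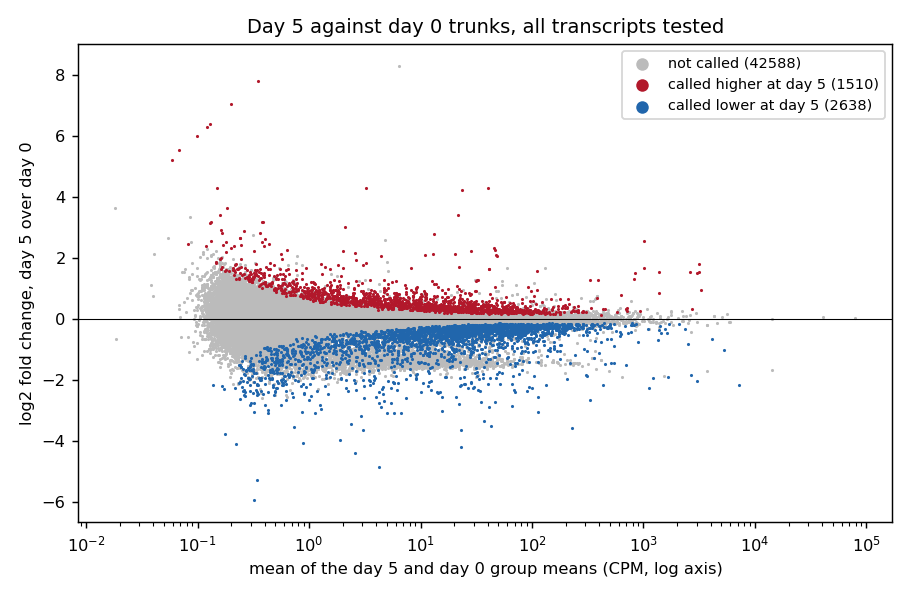
Log2 fold change of day 5 over day 0 (vertical axis) against the mean of the 2 group means in CPM (horizontal axis, log scale) for the 46736 transcripts tested. Red points are the 1510 called higher, blue points the 2638 called lower and grey points those not called, and a dense grey band lies below -1 on the vertical axis at intermediate levels.

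The day 5 and day 0 libraries did not overlap for 1508 of the 1510 rises and 2619 of the 2638 falls. Over all transcripts tested, the day 5 libraries lay above every day 0 library for 12.2% and below every one for 17.6%. The calls were made on these same libraries, which favours a lack of overlap among them.

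Transcripts absent from a whole group were rare. No tested transcript was without a count in all 3 day 5 libraries, while 8 had no count in any day 0 library. Of these 8, 7 were called higher, but they passed the filter only on their counts in other groups, which favours a call. The day 5 libraries were also deeper: 3 counts over the group stood for 0.0212 CPM at day 5 and 0.0371 CPM at day 0. The effect of depth on these numbers was not tested. The most abundant of the 8 had 97 counts over the day 5 libraries and a mean of 0.703 CPM, at least 18.5-fold higher than the day 0 level that 3 counts over the group would give. Of the calls, 10 were at 10 times their day 0 mean or more, leaving out those with no day 0 count, and 16 were at least 10 times below it.

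The called transcripts took up a different part of the library at each time. The 260 transcripts that rose at least 2-fold held 3.10%, 2.85% and 2.47% of the counts of the day 5 libraries, against 0.808%, 0.910% and 0.811% of those of day 0. The 650 that fell at least 2-fold held 1.74%, 1.46% and 1.76% at day 5, against 5.03%, 5.42% and 4.34% at day 0. Both sets were chosen on these libraries, so these shares describe them and are not tested. In the other groups, whose libraries entered the filter and the estimate of spread but not the contrast, the 260 held 2.27% ± 0.324 at day 3, 3.56% ± 0.629 at day 7 and 0.163% ± 0.0273 in juveniles (SD over 3 libraries). The 650 held 2.33% ± 0.305 at day 3, 1.09% ± 0.261 at day 7 and 0.595% ± 0.0596 in juveniles.

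**Figure D3:**
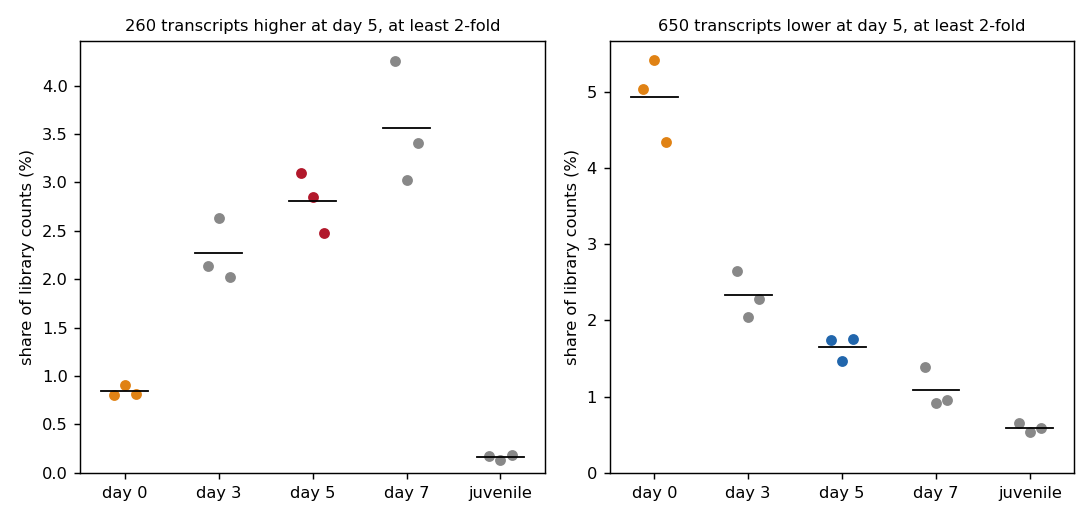
Share of library counts in percent (vertical axis) held by the 260 transcripts called at least 2-fold higher (left) and the 650 called at least 2-fold lower (right) at day 5, by group; points are libraries, lines are means, coloured points are the 2 groups compared. The left set has its highest mean, 3.56%, at day 7 and its lowest, 0.163%, in juveniles, and the right set has a lower mean in each later trunk group and 0.595% in juveniles.

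Such shares weigh abundant transcripts most. The median transcript of the 260 was at 0.733 CPM at day 5 and 0.286 CPM at day 0. In juveniles their median was 0.630 CPM, above day 0, though the share of the 260 was lowest there. The median of the 650 was at 1.02 CPM at day 5, 3.02 CPM at day 0 and 0.222 CPM in juveniles. Of all called transcripts, whatever their fold, the 10 with the largest gain of CPM (2 of which rose less than 2-fold) together took 3.03% ± 0.267 of the counts at day 5 and 1.01% ± 0.0614 at day 0. The 10 with the largest loss took 1.53% ± 0.197 at day 5 and 3.98% ± 0.394 at day 0 (SD, n = 3 each). For comparison, all 1510 rises held 8.26% ± 0.285 at day 5 and 4.62% ± 0.053 at day 0, and all 2638 falls 13.1% ± 0.29 at day 5 and 18.5% ± 0.858 at day 0.

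The transcript with the largest gain was GDAG01057705.1. It had 5692, 4670 and 4162 CPM in the day 5 libraries, against 1377, 1605 and 1208 CPM in those of day 0. All day 5 libraries lay far above all day 0 libraries, with a log2 fold change of 1.79 and an SE of 0.25 (edgeR adjusted p = 0.0015). Its means were 3830 CPM at day 3 and 5645 CPM at day 7, but 134 CPM in juveniles, below every trunk group.

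Second in gain was GDAG01085608.1, with 5197, 4404 and 4324 CPM at day 5, against 1574, 1628 and 1631 CPM at day 0. The day 0 libraries were nearly level with each other and the groups did not overlap. The log2 fold change was 1.53 (SE 0.34, edgeR adjusted p = 0.02), and the call was lost without any 1 of the 6 libraries, with adjusted p between 0.051 and 0.065. Over all 23 alternatives the adjusted p ran from 8.5e-05 to 0.097. Another transcript of the 10, the seventh by gain, went in step with it: the ratio of their CPM varied by 1.01 times over the 6 libraries. The transcripts at ranks 3 and 4 by gain were another such pair, with a ratio that varied by 1.04 times. Such pairs may be records of 1 gene, which the files do not tell, so the 10 need not be 10 genes.

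Over the 10 transcripts with the largest gain, changes ran from 1.81-fold to 5.91-fold. All 10 had groups that did not overlap, and 8 of the 10 had day 5 replicate 1 as the highest and replicate 3 as the lowest day 5 library, an order found in 15.2% of all transcripts tested and 20.4% of the 260 rises of at least 2-fold. In juveniles 9 of the 10 were at least 10 times below their day 5 level. The exception, the ninth by gain, had 1674, 1693 and 2002 CPM at day 5, against 1052, 953 and 961 CPM at day 0, and averaged 957 CPM in juveniles.

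The transcript with the largest loss was GDAG01019209.1. It had 3240, 1831 and 2819 CPM at day 5, against 11633, 13791 and 10225 CPM at day 0. The highest day 5 library lay far below the lowest day 0 library, and the mean share of counts was 0.261% at day 5 and 1.08% at day 0. Its log2 fold change was -2.18 with an SE of 0.47 (edgeR adjusted p = 0.017), a call that was lost without day 5 replicate 2 (adjusted p = 0.08) or replicate 3 (adjusted p = 0.062). Over all 23 alternatives it ran from 1.2e-05 to 0.08. Its means were 4685 CPM at day 3, 1219 CPM at day 7 and 15.9 CPM in juveniles.

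Next was GDAG01008860.1, with 1473, 961 and 1141 CPM at day 5, against 4449, 5464 and 4784 CPM at day 0. The groups did not overlap, and the log2 fold change was -2.04 with an SE of 0.38 (edgeR adjusted p = 0.0079). Like the transcript before it, it was highest in day 5 replicate 1 and lowest in replicate 2. Its juvenile mean was 8.11 CPM.

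**Figure D4:**
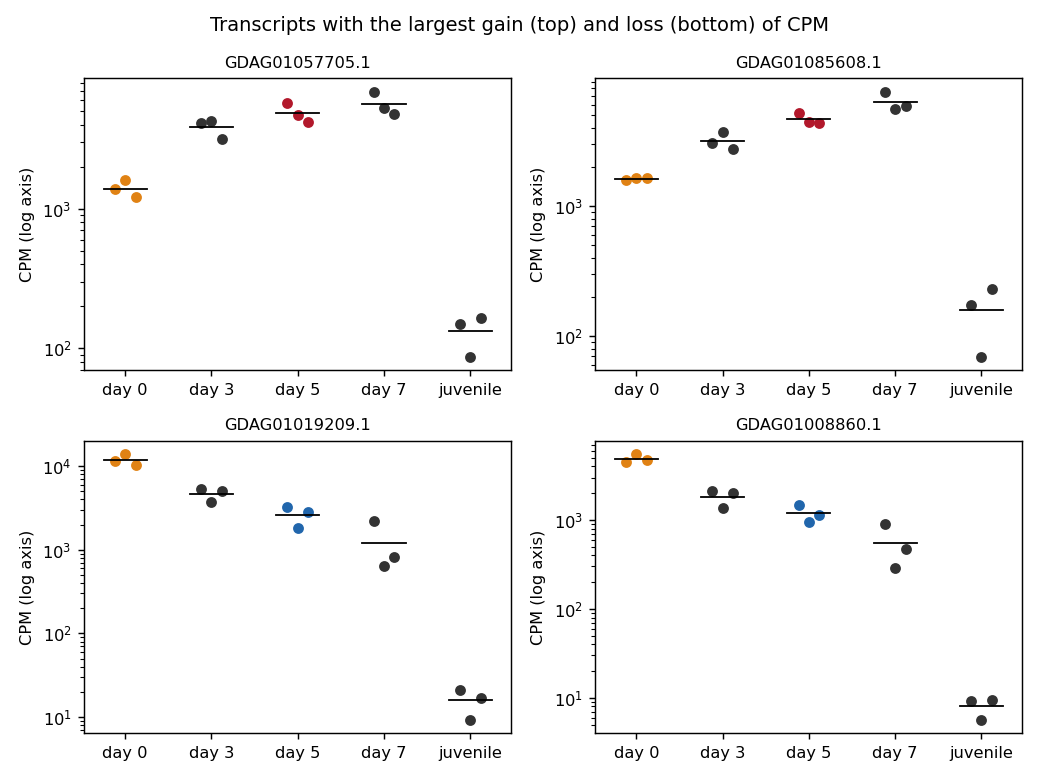
CPM per library (points; vertical log axis) and group means (lines) over the trunk groups and juveniles for the 2 transcripts with the largest gain (top) and the 2 with the largest loss (bottom) at day 5. The top pair has means of 4841 and 4642 CPM at day 5 and of 134 and 158 CPM in juveniles; the bottom pair is lower in each later trunk group, with means of 15.9 and 8.11 CPM in juveniles.

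The 10 transcripts with the largest loss fell into 2 kinds by their levels in the other groups. In 7 of them juveniles were at least 10 times below day 0, and the means went on down at day 7. The transcript at rank 4 by loss, for example, had 1517, 879 and 1118 CPM at day 5, against 4308, 4944 and 3371 CPM at day 0, and averaged 586 CPM at day 7 and 5.58 CPM in juveniles. The other 3, at ranks 3, 6 and 9 by loss, stayed abundant in juveniles. That at rank 3 had 3441, 3652 and 3384 CPM at day 5, against 8199, 6643 and 6403 CPM at day 0, and averaged 3679 CPM at day 3, 3884 CPM at day 7 and 2746 CPM in juveniles. That at rank 6 had 3864, 2763 and 2935 CPM at day 5, against 4929, 4984 and 5225 CPM at day 0, and averaged 3336 CPM in juveniles. In 8 of the 10, day 5 replicate 1 was highest and replicate 2 lowest, an order found in 17.1% of all transcripts tested and 28.0% of the 650 falls of at least 2-fold.

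Ranked by fold instead, with a mean of at least 5 CPM in the higher group, the 10 leading rises ran from 4.33-fold to 19.5-fold and the 10 leading falls from 8.47-fold to 28.7-fold. The first rise had 83.8, 86.5 and 60.6 CPM at day 5, against 3.60, 3.14 and 5.04 CPM at day 0, a log2 fold change of 4.29 (edgeR adjusted p = 2.4e-05). It averaged 15.2 CPM at day 3, 158 CPM at day 7 and 76.7 CPM in juveniles, so that day 5 libraries lay about the juvenile level. The rises at ranks 3 and 4 were likewise at their highest at day 7 and close to juveniles at day 5. That at rank 3 had 50.3, 48.1 and 35.9 CPM at day 5, against 2.27, 1.38 and 3.48 CPM at day 0, and averaged 7.12 CPM at day 3, 97.2 CPM at day 7 and 47.1 CPM in juveniles.

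Other leading rises were high already at day 3 and scarce in juveniles. The seventh had 86.4, 69.3 and 74.2 CPM at day 5, against 19.2, 6.38 and 20.8 CPM at day 0, and averaged 83.9 CPM at day 3, 70.3 CPM at day 7 and 1.53 CPM in juveniles. The ninth averaged 51.4 CPM at day 3 and 34.4 CPM at day 7, beside 49.6, 47.6 and 42.8 CPM at day 5 and 7.88, 4.81 and 17.3 CPM at day 0. The sixth was also among the 10 largest gains, with 2212, 1819 and 1149 CPM at day 5, against 225, 440 and 212 CPM at day 0, a 5.91-fold rise (edgeR adjusted p = 0.0034).

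All 10 leading falls were at least 10 times below their day 0 level in juveniles. The first had 0.194, 0.293 and 0.383 CPM at day 5, against 5.39, 9.80 and 9.62 CPM at day 0, a log2 fold change of -4.84 (edgeR adjusted p = 0.0015). The most abundant of them, the fifth, had 26.1, 35.2 and 45.3 CPM at day 5, against 351, 522 and 400 CPM at day 0, and averaged 22.6 CPM at day 7 and 1.20 CPM in juveniles. In 6 of these 10 the order of the day 5 libraries was replicate 3 highest and replicate 1 lowest, unlike the largest losses by CPM. That order was found in 18.1% of all transcripts tested and 24.5% of the 650 falls of at least 2-fold. The sixth, with 2.38, 7.44 and 10.6 CPM at day 5, against 67.2, 87.1 and 80.5 CPM at day 0, differed over 4-fold between day 5 libraries.

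**Figure D5:**
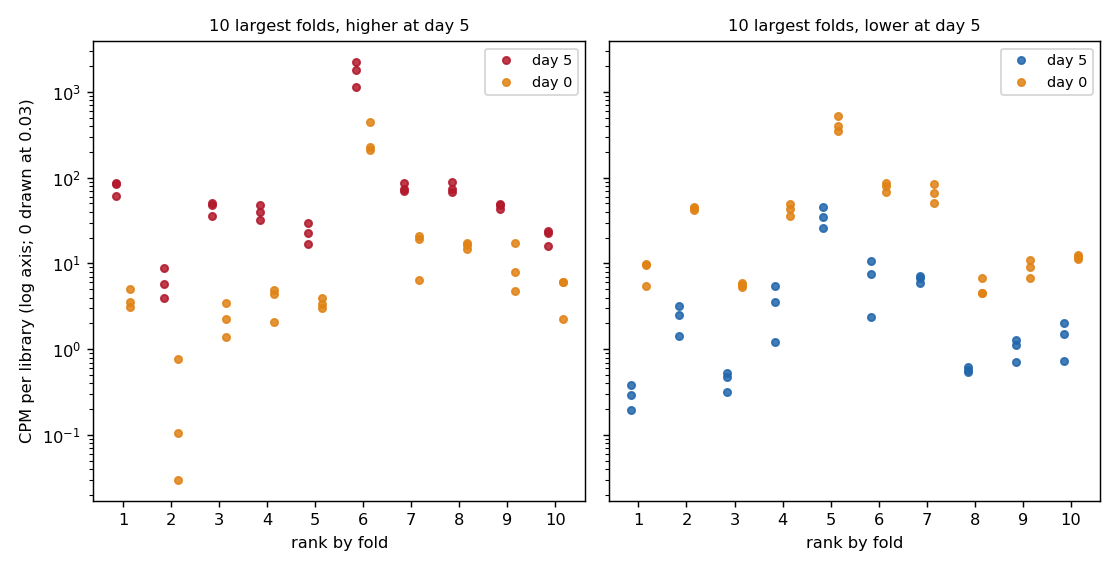
CPM per library (vertical log axis) for the 10 called transcripts with the largest fold rise (left) and fall (right) at day 5, by rank; coloured points on the left of each rank are day 5 libraries and orange points are day 0 libraries. No rank has overlapping groups, and the first fall lies under 0.4 CPM at day 5 and above 5 CPM at day 0.

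A larger block of transcripts, noticed in the plot of fold change against level, had lower values at day 5 without passing the test. At a mean of at least 1 CPM over the 2 groups, 400 transcripts were called and at least 2-fold lower, and a further 2079 were at least 2-fold lower but not called (adjusted p between 0.051 and 0.49). At the same level 88 were called and at least 2-fold higher, and 18 were so without a call. The median transcript of the 2079 was at 2.73, 3.86 and 4.45 CPM in day 5 replicates 1 to 3, against 5.66, 5.86 and 16.6 CPM in day 0 replicates 1 to 3. Day 0 replicate 3, the library that stood apart, was the highest day 0 library for 2024 of them (97.4%), against 86 of the 400 called (21.5%). Without it the median log2 fold change of the 2079 was -0.65 in place of -1.38, 131 were still at least 2-fold lower, and 9 were called lower. The 2079 were picked, as at least 2-fold lower and not called, in a fit that included day 0 replicate 3. That choice favours a high value in this library and a smaller fall without it. Together the 2079 held 2.44%, 2.50% and 3.13% of the counts at day 5, against 5.48%, 6.42% and 8.83% at day 0. Groups did not overlap for 1777 of them, beside 17.6% of all transcripts tested with every day 5 library below day 0, but the 2079 were picked as at least 2-fold lower, which favours this. The day 5 libraries had replicate 3 highest and replicate 1 lowest for 1495 of the 2079, an order found in 18.1% of all transcripts tested. At day 3 the median transcript of the 2079 was at 1.67, 1.94 and 6.30 CPM in replicates 1 to 3. At day 7 it was at 0.794, 0.222 and 1.94 CPM, so that replicate 3 had the highest median in every trunk group. The cause of this was not tested. In juveniles their median transcript was at 0.198 to 0.290 CPM.

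The 531 records that do not follow the identifier format of the assembly project had a higher share of rises. Of 513 tested, 75 (14.6%) rose and 27 (5.26%) fell. They were more abundant than the rest, with a median of 11.5 CPM against 1.02 CPM over all transcripts tested. At a mean of at least 1 CPM, 69 of 483 (14.3%) rose and 26 (5.38%) fell, beside 5.52% and 9.78% of the 23569 transcripts at that level. The rises were 48 and 46 without day 5 replicate 1 or 2, and 49 in the fit of the 2 groups alone. The falls were 16 and 17 without day 5 replicate 2 or 3, and 45 by DESeq2. Of the rises 12 were at least 2-fold, of which 2 had identical counts in all libraries, and the most abundant of these 12 was the in-step partner of GDAG01085608.1. The next had 77.5 ± 22.2 CPM at day 5 and 18.4 ± 5.67 CPM at day 0 (SD, n = 3 each). Of the falls 5 were at least 2-fold, led in day 0 level by a record with 3.71 ± 0.293 CPM at day 5 and 14.5 ± 4.24 CPM at day 0. Of the 42 tested records whose identifiers begin with BK, 1 passed the test, and it fell, beside 8.88% of all transcripts that passed and 5.64% that fell.

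Day 5 was also set against the mean of days 3 and 7, to ask what set it apart from the days around it. Day 0 is not in this contrast, but its libraries enter the filter and the estimate of spread. Only 5 transcripts passed (0.0107% of those tested), 1 higher and 4 lower, while 3894 had an unadjusted p under 0.05, 1798 of them higher and 2096 lower, and DESeq2 called 167, 82 higher and 85 lower. The lower one with the smallest p was at 39.8, 35.0 and 35.0 CPM at day 5, against 38.7, 51.5 and 41.6 CPM at day 3 and 71.5, 74.1 and 64.5 CPM at day 7, a log2 difference of -0.60 (SE 0.08, edgeR adjusted p = 0.036). Its day 5 libraries lay below those of day 7 but overlapped those of day 3. Its day 0 level was 63.0 to 65.4 CPM and its juvenile level 56.3 to 63.5 CPM, both above all day 5 libraries. Another of the 4 was at 48.5, 47.6 and 43.3 CPM at day 5, against 72.6 to 76.4 CPM at day 7, and overlapped day 3, at 45.4 to 53.9 CPM. In the rest of the 4, every day 5 library lay below every library of days 3 and 7. One of these was at 0.741, 0.773 and 0.681 CPM at day 5, against 1.13 to 1.83 CPM at day 3 and 1.96 to 2.91 CPM at day 7 (edgeR adjusted p = 0.04). The 1 higher transcript was at 5.45, 5.22 and 7.26 CPM at day 5. It was at 0.943 to 1.42 CPM at day 3 and 5.56 to 7.63 CPM at day 7. It thus stood above the mean of those days but no higher than day 7. At day 0 it had 39.3, 37.3 and 29.0 CPM. Against day 0 it was called lower, with a log2 fold change of -2.56 (edgeR adjusted p = 2.5e-06). These transcripts are given after their values were seen. None of the 4 transcripts given by identifier passed this test, with adjusted p from 0.82 to 0.97.

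The count of 5 hung on single libraries. By edgeR it was 0 when any 1 of the 3 day 5 libraries, day 7 replicate 1 or 2, or any 1 of the juvenile libraries was left out, with 2623 to 4173 transcripts at an unadjusted p under 0.05 in these fits. Among the day 3 libraries, the count was 56 with replicate 1 left out, 1 with replicate 2 left out and 3 with replicate 3 left out. With day 0 replicate 3 left out it was 45. Without replicate 3 of days 0 and 3 and replicate 2 of day 7, a choice made after their positions had been seen, it was 2021, of which 1720 were higher and 301 lower at day 5. The same choice gave 1358 rises and 2678 falls of day 5 against day 0, close to the numbers with all libraries.

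The breadth of the libraries was compared with 1 value per library, in tests of 3 libraries against 3 that cannot pass 0.05. With each library thinned to 20338464 counts, 74928, 75786 and 76406 records had at least 1 count at day 5, against 74095, 74153 and 75141 at day 0. The difference in means was 1244 records, and 894 to 1633 with 1 of the 6 libraries left out (two-sided exact permutation p = 0.2, where 0.1 is the smallest p possible). The 100 most abundant records of a library held 34.7%, 32.5% and 32.6% of its counts at day 5, against 33.6%, 34.8% and 31.5% at day 0 (exact permutation p = 0.9).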

How the data were processed

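The authors' deposited file holds raw read counts per sequence record for 15 libraries, judged from its whole numbers and differing totals to be free of normalization. Bowtie2 was used per the submitters' processing notes. The sources used here give neither its version nor the counting tool, the sequences aligned to, any filter or the handling of reads shared by near-identical records. Per the labels, RNA was taken by TRIzol and a TruSeq kit made the libraries; the kit keeps no strand, so reads of a transcript and of one antisense to it cannot be told apart. Groups were taken from the sample titles.

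Records were filtered with filterByExpr (minimum count 10, minimum total count 15), scaled by TMM and tested with edgeR 4.0.16 (limma 3.58.1, R 4.3.3) by robust quasi-likelihood, in a model of the 5 groups over all 15 libraries (10 residual degrees of freedom). P-values were adjusted by Benjamini-Hochberg over all 46736 records, and a call is an adjusted p under 0.05. SE is the fitted log2 fold change divided by the square root of F. Depth was 20338464 to 59034917 counts; counts within replicate pairs differed by more than sampling noise (chi-square per degree of freedom 5.38 to 33.8). Simulated counts had 50 changed transcripts in each class, drawn from those with a mean of at least 1 CPM. This fit of day 5 against day 0 called 36 raised 2-fold, 43 lowered 2-fold, 47 raised 4-fold and 44 lowered 4-fold. It also called 10 unchanged ones among 45781 tested. The counts were drawn with the spread estimated here and no library standing apart. They do not show how the test fares on scarcer changed transcripts or with a library that stands apart.

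Transcripts given by identifier were the 2 rising and 2 falling calls with the largest change in mean CPM and no overlap of groups; others are given by rank among the 10 largest changes in CPM or fold. The comparison, lists and rules were chosen with earlier results of these data known. Alternatives were DESeq2 1.42.0, RLE factors, no filter, the groups compared alone, a replicate block, identical rows kept once, stricter thresholds and leaving out libraries.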

Additional observations from a re-analysis of the deposited data

How the results depend on the processing

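Falls outnumbered rises of day 5 against day 0 in every setting that gives the split, narrowly so without the low-count filter (1823 falls to 1742 rises), and the 4 transcripts given by identifier kept their direction. At an adjusted p under 0.01 there were 1856 calls, 604 higher and 1252 lower, of which 104 and 359 were at least 2-fold, and 0 against the mean of days 3 and 7. The groups compared alone gave 2103, 897, 1206 and, at least 2-fold higher, 139, and 1 against days 3 and 7. The test against a 1.5-fold change gave 250. DESeq2 called 115 at least 2-fold higher, and 167 against days 3 and 7, where no filter gave 51. Leaving out 1 library gave 2331 to 4492 calls, 848 to 1856 higher and 1483 to 2938 lower, of which 169 to 294 and 418 to 797 at least 2-fold; against days 3 and 7 it gave 0 to 56. Without replicate 3 of days 0 and 3 and replicate 2 of day 7, that count was 2021 and the edgeR adjusted p of GDAG01085608.1 was 0.097. These libraries were picked after their positions had been seen, and only that of day 0 replicate 3 is given here. The cause of these differences was not tested.

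With the replicate block there were 5556 calls, of which 1475 were at least 2-fold lower, and 29 against days 3 and 7. Deviations of same-numbered day 5 and day 0 libraries correlated at 0.155, -0.0354 and 0.179, so the numbers were not taken to pair them, and day 5 replicate 2 correlated best with another number.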

Other observations

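One transcript was present or absent by library rather than by group. It had 38.2 CPM in day 5 replicate 2, and 0.0353 and 0.0426 CPM in the other day 5 libraries. At day 7 it had 46.2 and 32.8 CPM in replicates 1 and 2 and 0.0388 CPM in replicate 3, and it was at 0.0989 CPM or less in all day 0, day 3 and juvenile libraries. It was the only tested transcript at 10 CPM or more in a day 5 library and under 0.5 CPM in another, a rule set after its values were seen. It was not called against day 0 (edgeR adjusted p = 0.17).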
